A study of Homo sapiens with 6 samples.

Results

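Peaks of N6-methyladenosine (m6A) that spanned more than 10 kb of the genome were examined in MHCC97H cells, an established line from human liver cancer, after inhibition of the m6A eraser FTO. The 3 FB23-2 samples had been exposed for 48 h to 2 µM FB23-2, a small-molecule FTO inhibitor, and the 3 DMSO samples to the vehicle. Poly(A) RNA was fragmented and m6A-bearing fragments were captured with an antibody (MeRIP-seq), and each treatment is represented by 1 pooled peak list. Peaks were chosen by their span alone, the distance from the deposited start to the deposited end, and the span runs over any introns between those ends. By this rule 5076 of 41838 peaks were members in the FB23-2 list (12.1%, exact 95% interval 11.8% to 12.4%) and 5273 of 42813 in the DMSO list (12.3%, interval 12% to 12.6%). Intervals cover the counting of peaks only. There were no replicate lists, so no difference between the treatments could be set against the spread between samples, and none was tested.

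m6A is placed on nascent RNA by the METTL3-METTL14 complex, mostly at a short consensus around GGACT, and it is removed by FTO and ALKBH5. In most cells it is densest in long exons, near stop codons and in 3′ UTRs, and also occurs near the transcript's start. A peak caller that works on spliced transcripts can join neighbouring exons, and the genomic distance between the ends of such a peak then includes the introns. The tables hold no exon blocks, so how much of each long span was covered by immunoprecipitated RNA is not known here.

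The sequences at which some of these peaks begin are shown because they are the only stretches of the members for which the letters were at hand. Of the long peaks, 2512 in the FB23-2 list and 2581 in the DMSO list lay on the same chromosome and strand as a RefSeq promoter window of the same gene symbol (GRCh38.p14). Among them 240 FB23-2 peaks and 231 DMSO peaks began within the first 50 transcribed bases of the RefSeq gene. GGACT stood in those 50 bases for 12 of the 240 (5%) and 9 of the 231 (3.9%), against 1088 of all 22114 windows of the same length (4.92%). The reverse complement, AGTCC, stood in 12 (5%) and 7 (3.03%), against 1069 of all windows (4.83%). The motif was thus about as frequent where long peaks began as in any gene start. In 6 genes it lay inside the long peak of both lists, and the bases around it are given 5′ to 3′ on the transcribed strand, with GGACT in capitals.
ZNF214: cattgtttgtgtGGACTga
DHX57: agaaggcgccgGGACTgtgccgctgcag
ARIH1: aggtggcgttggGGACTgttttctctc
EPHA2: attaaGGACTcggggcaggagg
RRP15: agccgccgctccGGACTcacg
CHMP4B: cagggagcggcgGGACTgggagcgggcgc

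These stretches are chr11:7020297-7020315 (minus strand), chr2:38875907-38875934 (minus), chr15:72474353-72474379 (plus), chr1:16156048-16156069 (minus), chr1:218285322-218285342 (plus) and chr20:33811365-33811393 (plus), in the order printed. EPHA2 encodes an ephrin receptor tyrosine kinase. Its long peak began at base 1 of the transcript in both lists and spanned 17906 bases with a log2 fold of 2.28 in the FB23-2 list, against 17931 bases and 2.33 in the DMSO list. ARIH1, an E3 ubiquitin ligase, also had its long peak begin at base 1, with 92120 bases and a log2 fold of 2.33 in the FB23-2 list and 87157 bases and 2.33 in the DMSO list. The peak of CHMP4B, a subunit of the membrane-cutting ESCRT-III complex, had the lowest folds of the 6, 1.29 in the FB23-2 list and 1.26 in the DMSO list. The peak of the zinc finger gene ZNF214 had the highest, 3.6 in the FB23-2 list and 3.56 in the DMSO list.

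The long peaks formed the upper tail of a continuous distribution with no gap at 10 kb. Their median span was 21495 bases in the FB23-2 list (quartiles 14153 and 39059) and 21456 bases in the DMSO list (quartiles 14057 and 39018). All other peaks had a median span of 450 bases in both lists. Spans over 100 kb were reached by 278 FB23-2 peaks and 293 DMSO peaks, and spans over 500 kb by 6 FB23-2 peaks and 7 DMSO peaks. Just inside the limit lay peaks of FOXK2 and XPC (10001 bases each) in the FB23-2 list, and of ABITRAM (10002 bases) and REV1 (10004 bases) in the DMSO list. Just outside lay peaks of CHD7 and CD55 (9999 bases each) in the FB23-2 list, and of SNRK (10000 bases) and TOX4 (9998 bases) in the DMSO list. Long peaks made up 78.1% of the summed span of all FB23-2 peaks and 78.3% of that of all DMSO peaks.

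**Figure D1:**
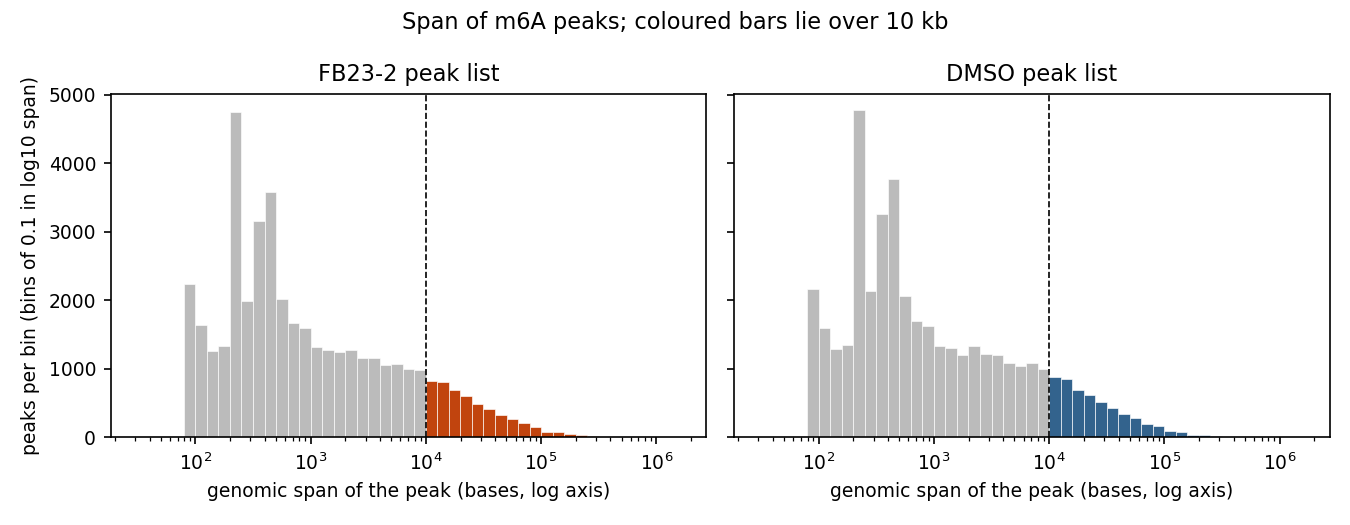
Number of peaks (vertical axis) by genomic span in bases (log axis, bins of 0.1 in log10 span) in the FB23-2 list (left) and the DMSO list (right). Coloured bars lie over 10 kb and hold 5076 and 5273 peaks, and the counts run on across the dashed 10 kb line without a gap.

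Long peaks were assigned to 4071 of the 16003 genes with any peak in the FB23-2 list (25.4%) and to 4171 of 16158 in the DMSO list (25.8%), shares that the rule itself sets. Most of these genes had 1 long peak (3267 in the FB23-2 list, 3322 in the DMSO list), and 156 genes in the FB23-2 list and 180 in the DMSO list had 3 or more. The genes were long: their median length was 71601 bases in the FB23-2 list and 71003 bases in the DMSO list, against 25281 and 25061 bases over all genes with an FB23-2 or DMSO peak. In genes of up to 10 kb, 1.25% of FB23-2 peaks and 1.45% of DMSO peaks were long, and in genes of over 200 kb 25.6% of FB23-2 peaks and 26.1% of DMSO peaks were. A gene of up to 10 kb can have a long peak only if the peak reaches past it. The rule itself thus favours long genes, and these contrasts are a description. Of the genes with a long peak that matched a RefSeq biotype, 93.4% were protein coding in the FB23-2 list and 93.2% in the DMSO list, against 87.8% and 87.7% of the matched genes without one.

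The single longest peak of each list was assigned to OTC, which encodes the urea cycle enzyme ornithine carbamoyltransferase. It ran over 1260037 bases in the FB23-2 list (chromosome X, 37406223 to 38666259, log2 fold 2.48) and over 1316801 bases in the DMSO list (37349459 to 38666259, log2 fold 2.41). The gene as deposited is only 68861 bases long, and 12 other FB23-2 peaks and 14 other DMSO peaks of the same strand lay wholly inside the span. ROBO1, a receptor for the guidance cue SLIT, came second in both lists with 795074 bases in the FB23-2 list (log2 fold 3.07) and 795573 bases in the DMSO list (3.02). Its span covered 67.9% of the gene in the FB23-2 list and 68.0% in the DMSO list. HS6ST3, a heparan sulfate sulfotransferase, had 742418 bases in the FB23-2 list, which was 99.2% of its gene. Peaks of FAM155A, the receptor-type phosphatase gene PTPRD and SUMF1, which encodes the enzyme that activates sulfatases, were also among the 10 longest of both lists. SUMF1 differed by 25 bases only, with 533909 bases in the FB23-2 list and 533934 in the DMSO list, and its log2 fold was 1.47 in the FB23-2 list and 1.25 in the DMSO list. The transcription factor gene CAMTA1 had 361721 bases in the FB23-2 list and 580174 in the DMSO list.

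A span can reach past the gene it was assigned to. This was so for 298 long FB23-2 peaks (5.87%) and 329 long DMSO peaks (6.24%), against 1.07% and 1.04% of the shorter FB23-2 and DMSO peaks. A peak of 417330 bases in the FB23-2 list and one of 256888 bases in the DMSO list carried the name of RN7SKP170, a 7SK pseudogene of 328 bases. Such names describe the deposited assignment and not the RNA that was captured. In the FB23-2 list 250 long peaks (4.93%) and in the DMSO list 254 (4.82%) held at least 1 other peak of the same strand wholly inside them. A long peak of HOXC4, a homeobox gene in a cluster of such genes, held 7 others over the same 40200 bases in both lists (chromosome 12, 53990624 to 54030823). Its log2 fold was 2.96 in the FB23-2 list and 2.95 in the DMSO list. The DMSO list held a second long HOXC4 peak around it, of 48467 bases with a log2 fold of 1.07 and 9 peaks inside. TUBA8, an alpha-tubulin gene, had 9 peaks inside its 37527 bases in the FB23-2 list and 11 inside its 37627 bases in the DMSO list. These examples were picked after their values were seen.

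Long peaks carried the 5′ UTR label more often than shorter ones. The deposited class was 5′ UTR for 1391 of 5076 long FB23-2 peaks (27.4%, interval 26.2% to 28.7%) and 1378 of 5273 long DMSO peaks (26.1%, interval 25.0% to 27.3%), against 10.1% and 9.63% of the shorter FB23-2 and DMSO peaks. The share grew with span: in the FB23-2 list it was 10.1% up to 10 kb, 21.2% from 10 to 20 kb, 29.7% from 20 to 50 kb, 38.1% from 50 to 100 kb and 39.6% beyond 100 kb. The DMSO list gave 9.63%, 20.8%, 27.3%, 37.4% and 37.9% over the same bins. The last bins rest on 278 FB23-2 peaks and 293 DMSO peaks, and their intervals overlap those of the bin before. The 3′ UTR label ran the other way, with 41.6% of long FB23-2 peaks and 42.3% of long DMSO peaks against 59.5% and 59.4% of the shorter FB23-2 and DMSO peaks. Exonic labels were on 20.3% of long FB23-2 peaks and 20.4% of long DMSO peaks, against 11.8% of the shorter peaks of either list. Intronic labels were rare, with 22 long FB23-2 peaks (0.43%) and 26 long DMSO peaks (0.49%) against 5.22% and 5.35% of the shorter FB23-2 and DMSO peaks. A span over 10 kb usually crosses several classes, and the tables give 1 class per peak by a rule that they do not state.

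**Figure D2:**
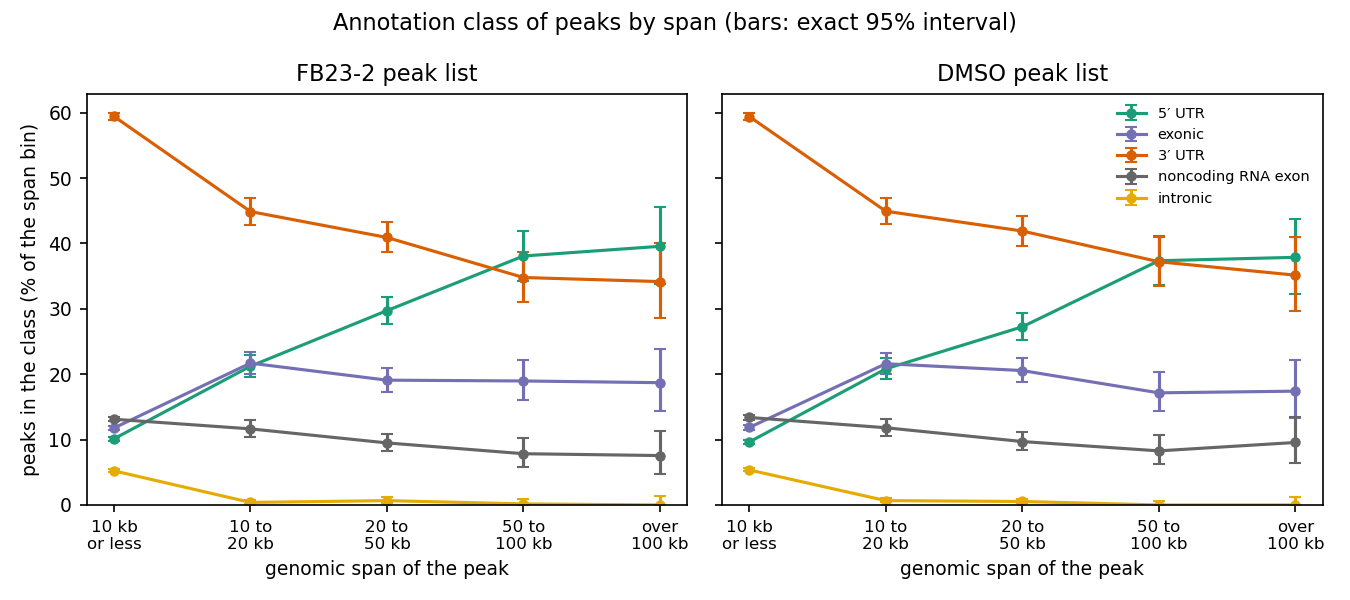
Share of peaks in each deposited annotation class (vertical axis, % of the span bin) by genomic span (horizontal axis) in the FB23-2 list (left) and the DMSO list (right). Points are shares with exact 95% binomial intervals. In both lists the 5′ UTR share climbs from about 10% to nearly 40% while the 3′ UTR share declines to about 35%.

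The ends of the peaks showed the same shift in position without the class label. The upstream end of the peak coincided exactly with the deposited 5′ end of the gene for 324 long FB23-2 peaks (6.38%) and 294 long DMSO peaks (5.58%), against 3.79% and 3.49% of the shorter FB23-2 and DMSO peaks. The downstream end coincided with the gene's 3′ end for 311 long FB23-2 peaks (6.13%) and 351 long DMSO peaks (6.66%), against 19% and 19.3% of the shorter FB23-2 and DMSO peaks. Among the shorter peaks both ends matched the gene in 278 of 36762 FB23-2 and 272 of 37540 DMSO peaks. Among the long peaks the share was smaller, with 27 of 5076 FB23-2 and 25 of 5273 DMSO peaks. SDHAF3, an assembly factor of succinate dehydrogenase, was one of these in both lists, with 64066 bases (chromosome 7, 97117698 to 97181763) and a log2 fold of 1.69 in the FB23-2 list and 2.05 in the DMSO list. In the FB23-2 list the DNA helicase gene ERCC6L (34371 bases, log2 fold 3.58) and RMI1, which stabilises a helicase complex that resolves DNA crossovers (23277 bases, 3.43), were covered from end to end. These 3 were picked after their values were seen. The median long peak covered 31.4% of its gene in the FB23-2 list and 31.1% in the DMSO list.

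The authors' log2 fold of each peak is taken as that of the captured RNA over its input, a reading that the tables leave unstated. Its median was 2.03 over long FB23-2 peaks (quartiles 1.29 and 2.98) and 1.97 over long DMSO peaks (quartiles 1.23 and 2.94), against 1.37 and 1.34 over the shorter FB23-2 and DMSO peaks. A log2 fold of at least 2 was reached by 50.9% of long FB23-2 peaks and 49.3% of long DMSO peaks, against 27.6% and 26.4% of shorter FB23-2 and DMSO peaks. The median was higher for long peaks within each of the 5 named classes in both lists. For 3′ UTR peaks it was 2.25 against 1.32 in the FB23-2 list and 2.22 against 1.31 in the DMSO list, and for exonic peaks it was 1.47 against 1.20 in the FB23-2 list and 1.40 against 1.13 in the DMSO list. It was also higher within every range of gene length, for example 2.60 against 1.43 in genes of 10 to 20 kb and 1.69 against 1.25 in genes of over 200 kb (FB23-2 list). A p-value of 0 was deposited for 26.6% of long FB23-2 peaks and 26.7% of long DMSO peaks, against 8.58% and 8.77% of shorter FB23-2 and DMSO peaks. The number of reads behind each peak is unknown here, so fold and p could not be compared at equal depth.

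**Figure D3:**
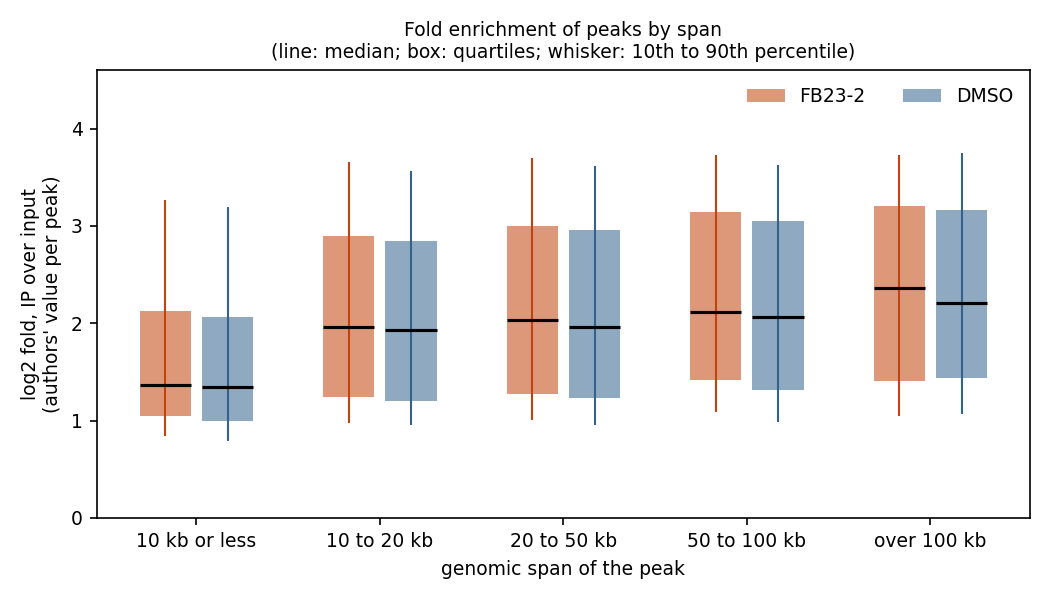
The authors' log2 fold per peak (vertical axis) by genomic span (horizontal axis), FB23-2 list left of the DMSO list in each bin. The black line is the median, the box the quartiles and the whisker the 10th to 90th percentile. Medians are 1.37 and 1.34 up to 10 kb and 2.36 and 2.21 beyond 100 kb, and the boxes of neighbouring bins over 10 kb overlap widely.

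The highest folds among the long peaks belonged to genes of melanin synthesis. TYR, the rate-limiting enzyme of melanin synthesis, had a peak of 22073 bases with a log2 fold of 9.26 in the FB23-2 list (chromosome 11, 89178225 to 89200297), against 22123 bases and 8.45 in the DMSO list. A second TYR peak had 8.64 in the FB23-2 list and 8.03 in the DMSO list. PMEL, which forms the fibrils of the pigment organelle, had 9.09 in the FB23-2 list and 9.23 in the DMSO list over the identical 11983 bases (chromosome 12, 55954105 to 55966087, minus strand). TYRP1, another melanosomal enzyme, had 7.52 in the FB23-2 list and 6.49 in the DMSO list, where CYP39A1 (6.64) ranked above it. The melanosome antigen gene MLANA, outside the top 10, had 4.8 over 16625 bases in the FB23-2 list and 4.89 over 17772 bases in the DMSO list. The input level behind these folds is unknown here.

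The remaining peaks at the top of the fold ranking came from varied genes. TAB2, an adaptor of the TAK1 kinase in inflammatory signalling, had a log2 fold of 6.41 in the FB23-2 list and 5.78 in the DMSO list over the same 73333 bases (chromosome 6, 149245427 to 149318759). CYP39A1, a hydroxylase of bile acid synthesis, had 5.97 in the FB23-2 list over 10582 bases and 6.64 in the DMSO list over 10632 bases. CHSY3, a chondroitin sulfate synthase, had 6.11 in the FB23-2 list over 278850 bases, or 98.8% of its gene. DNAJC17, a heat shock protein cofactor, had 5.74 in the FB23-2 list and 4.57 in the DMSO list over an identical span of 27076 bases. A wide gap in fold at nearly equal borders was seen in CUX1, a homeobox transcription factor. Its peak at the 5′ end had 2.91 in the FB23-2 list over 97232 bases and 6.26 in the DMSO list over 97257 bases. LINC00639, C12orf60 and the cation channel gene TRPM3 were among the 10 highest in the DMSO list only, with 6.15, 5.92 and 5.90.

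Most long peaks had a counterpart under the other treatment. Sharing was counted on 1 strand and required that the overlap cover 50% or more of whichever peak was shorter. This held for 4624 long FB23-2 peaks (91.1%, interval 90.3% to 91.9%), where 82.7% of all FB23-2 peaks were shared, and for 4763 long DMSO peaks (90.3%, interval 89.5% to 91.1%), where 79.9% of all DMSO peaks were. No overlap at all was found for 398 long FB23-2 peaks (7.84%), against 16% of all FB23-2 peaks, and for 465 long DMSO peaks (8.82%), against 18.9% of all DMSO peaks. Span itself enters the overlap rule, so the comparison with all peaks is a description. When 50% of both spans had to overlap, 80.1% of long FB23-2 peaks and 77.8% of long DMSO peaks were still shared, against 63.9% and 62.5% of the shorter FB23-2 and DMSO peaks. By gene, 3559 genes had a long peak in both lists, which is 87.4% of those in the FB23-2 list and 85.3% of those in the DMSO list. Of the 512 genes with a long peak in the FB23-2 list only, 462 had a shorter peak in the DMSO list, and of the 612 with one in the DMSO list only, 541 had a shorter peak in the FB23-2 list.

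The borders of the peaks agreed less often than the regions. Both ends were identical for 588 peaks, which is 11.6% of the long FB23-2 peaks and 11.2% of the long DMSO peaks, where 13.2% of all FB23-2 peaks and 12.9% of all DMSO peaks had identical ends. Exactly 1 end was found in the other list for 41.4% of long FB23-2 peaks and 40.1% of long DMSO peaks. For the shorter FB23-2 and DMSO peaks it was 37.3% and 36.0%. Neither end was found for 46.3% of long FB23-2 peaks and 47.4% of long DMSO peaks, against 48.9% and 50.3% of the shorter ones. Pairing each long peak with the long peak of the other list that it overlapped best, in both directions, gave 4146 pairs. The shared part was a median of 99.5% of the joint span, and it was at least 90% in 77.1% of the pairs. Where an end had moved by up to 100 bases, the shift was a whole multiple of 25 bases in 98.5% of 2882 cases. The span was longer in the FB23-2 list in 1585 pairs, longer in the DMSO list in 1896 and equal in 665. It differed by more than 10 kb in 203 pairs with the longer peak in the FB23-2 list and in 250 with the longer peak in the DMSO list. The deposited class was the same in 94.3% of pairs.

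Peaks with identical borders allow the 2 deposited folds to be read between the same ends. Whether the 2 lists joined the same exons between those ends is not known here. Over the 588 pairs the log2 fold had a median of 2.33 in the FB23-2 list and 2.34 in the DMSO list. The difference, FB23-2 minus DMSO, had a median of -0.003 with quartiles of -0.14 and 0.12, and was above 0 in 49.7% of pairs. It lay within 0.5 in 91.7% of pairs. Pearson's r across these pairs was 0.963, a description of peaks that share their borders and come from 1 pooled list per treatment. The 4946 identical pairs of shorter peaks gave a median difference of -0.01, quartiles of -0.13 and 0.11 and r of 0.960. Differences over 1 were found in 6 long pairs with the higher fold in the FB23-2 list and in 5 with the higher fold in the DMSO list. Among these, picked after their values were seen, were TBL1XR1, a corepressor subunit (2.78 in the FB23-2 list, 1.67 in the DMSO list), and CLDN18, a tight junction protein (3.45 in the FB23-2 list, 4.75 in the DMSO list). ZNF565 had 2.22 in the FB23-2 list and 3.61 in the DMSO list.

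**Figure D4:**
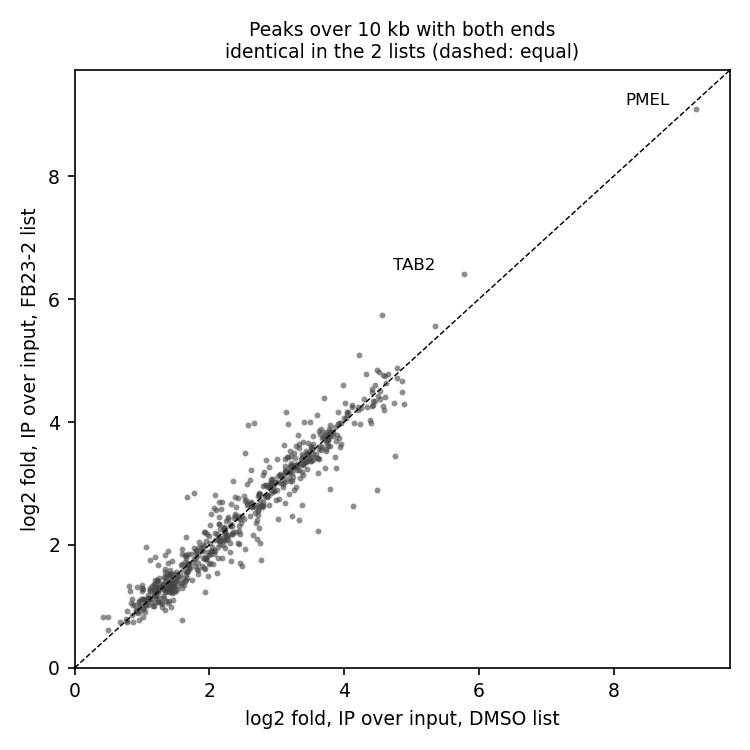
The authors' log2 fold in the FB23-2 list (vertical axis) against that in the DMSO list (horizontal axis) for the 588 long peaks with identical ends in both lists. Points scatter around the dashed line of equality, with a median difference of -0.003, and PMEL and TAB2 have the highest folds.

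In the 10 longest peaks with identical ends the log2 fold difference, FB23-2 minus DMSO, ran from -1.59 to 0.36. Most of these differences lay outside the quartiles of all 588 pairs, -0.14 and 0.12. The longest, over 315076 bases of chromosome 7 (93591573 to 93906648), was assigned to GNGT1, a G protein subunit of photoreceptors, with a log2 fold of 1.54 in the FB23-2 list and 2.11 in the DMSO list. NRXN3, a synaptic adhesion protein, had 1.82 in the FB23-2 list and 1.65 in the DMSO list over 256416 bases. IGF1R, the receptor of insulin-like growth factor, had 2.48 in the FB23-2 list and 2.72 in the DMSO list over 224867 bases (chromosome 15, 98648864 to 98873730). TPST1, a tyrosylprotein sulfotransferase gene, had 3.30 in the FB23-2 list and 3.39 in the DMSO list. CWC27, a splicing-associated isomerase gene, had 1.69 in the FB23-2 list and 1.6 in the DMSO list. BASP1, which encodes a membrane-bound signalling protein, had 2.52 in the FB23-2 list and 2.67 in the DMSO list. Both directions thus occur among these genes. The zinc finger gene TSHZ2 had 4.85 in the FB23-2 list and 4.49 in the DMSO list. A peak nearby on the opposite strand, assigned to the noncoding transcript AL354993, had 3.97 in the FB23-2 list and 4.24 in the DMSO list. It spanned 231296 bases and reached past the deposited gene, which is 15250 bases long. SETBP1, which binds the SET oncoprotein, had 4.31 in the FB23-2 list and 4.75 in the DMSO list. The widest difference of all 588 pairs was in the peak assigned to MIR651, with 2.89 in the FB23-2 list and 4.49 in the DMSO list over 167918 bases. Its name is that of a microRNA gene, and the fold belongs to the whole span.

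Where only 1 end was shared, the other could lie far away. There were 2547 such pairs in which at least 1 peak was long. Both were long in 1893, only the FB23-2 peak was long in 287 and only the DMSO peak was long in 367. In PTPRD the peak whose lower end lay at base 8528651 of chromosome 9 spanned 108117 bases in the FB23-2 list (log2 fold 1.55) and 654678 in the DMSO list (2.77). The FB23-2 list held a separate PTPRD peak of 546511 bases just beyond it, so the same stretch was given as 2 peaks there and as 1 in the DMSO list. FOXN3, a forkhead repressor, had 74701 bases in the FB23-2 list (3.97) and 542769 in the DMSO list (3.56). That DMSO peak reached past the deposited gene, of which it covered 41.9%. KCNH5, a voltage-gated potassium channel, had 125 bases in the FB23-2 list (2.14) and 332611 in the DMSO list (3.16). PLCL2, a phospholipase C-like protein, had 9196 bases in the FB23-2 list and 287604 in the DMSO list at nearly the same fold, 2.72 in the FB23-2 list and 2.74 in the DMSO list. The reverse order held in TMCC1, a membrane protein of the endoplasmic reticulum, with 203954 bases in the FB23-2 list (2.83) and 25513 in the DMSO list (2.91). In 2 of the 8 named pairs the assigned gene differed as well. A peak of 330794 bases assigned to GLCCI1 in the FB23-2 list (1.13) began where a peak of 128366 bases assigned to UMAD1 began in the DMSO list (0.98). A further DMSO peak assigned to UMAD1, of 202353 bases (1.03), lay on the rest of that stretch. A peak of 190577 bases assigned to AC093155 in the FB23-2 list began where a peak of 525 bases assigned to HS2ST1 began in the DMSO list. The ubiquitin ligase gene RNF150 had 76895 in the FB23-2 list and 265660 in the DMSO list.

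In 40 long FB23-2 peaks the start was that of one DMSO peak and the end that of another, separate DMSO peak, and 74 long DMSO peaks stood in this relation to FB23-2 peaks. The median gap between those separate peaks was 112.5 bases for the FB23-2 peaks and 100 bases for the DMSO peaks. The following examples were picked after the pattern was seen. NRDE2, which takes part in RNA silencing and splicing, had 1 FB23-2 peak of 50467 bases (3.35) where the DMSO list held peaks of 19791 bases (3.42) and 30601 bases (3.10), 75 bases apart. ZMYND8, a chromatin reader, had 1 DMSO peak of 28259 bases (3.74) where the FB23-2 list held peaks of 20547 bases (3.76) and 7687 bases (1.29), 25 bases apart. In PTPN12, a tyrosine phosphatase, a DMSO peak of 47860 bases (3.61) corresponded to FB23-2 peaks of 8497 bases (7.81) and 21150 bases (3.54), which lay 18213 bases apart. A gap over 10 kb was found in 4 FB23-2 and 13 DMSO cases.

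Genes with the most long peaks were SYNE2, UTRN, GLIS3, FAM13A and CHD9. SYNE2 encodes nesprin-2, a giant protein that ties the nucleus to the cytoskeleton. Of its 21 peaks, 4 were long in the FB23-2 list, against 9 of 21 in the DMSO list. One stretch began at the same base (chromosome 14, 64049135) and spanned 16392 bases in the FB23-2 list, with a log2 fold of 2.95, against 26646 bases and 2.86 in the DMSO list. UTRN encodes utrophin, which links actin to the membrane, and had 3 long peaks of 12 in the FB23-2 list and 9 of 17 in the DMSO list. All 12 of its long peaks had folds between 0.94 and 1.45. One of them, at the gene's 5′ end (chromosome 6, 144285701 to 144330852, 1.30), was in the FB23-2 list only. What part the joining of neighbouring exons has in these counts was not tested.

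In the transcription factor gene GLIS3 the FB23-2 list had 5 long peaks and the DMSO list 6. The peak at its 5′ side had nearly the same span in both, 148999 bases in the FB23-2 list (3.42) and 149024 in the DMSO list (3.24). FAM13A had 5 long peaks in each list, with folds from 0.67 to 1.31. CHD9, a chromatin remodelling helicase, also had 5 in each. Those 5 lay in the same order in both lists, and the second had identical borders over 76949 bases (chromosome 16, 53131213 to 53208161) with 2.30 in the FB23-2 list and 2.22 in the DMSO list. Its last peak, labelled 3′ UTR, had 3.56 in the FB23-2 list and 3.69 in the DMSO list.

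**Figure D5:**
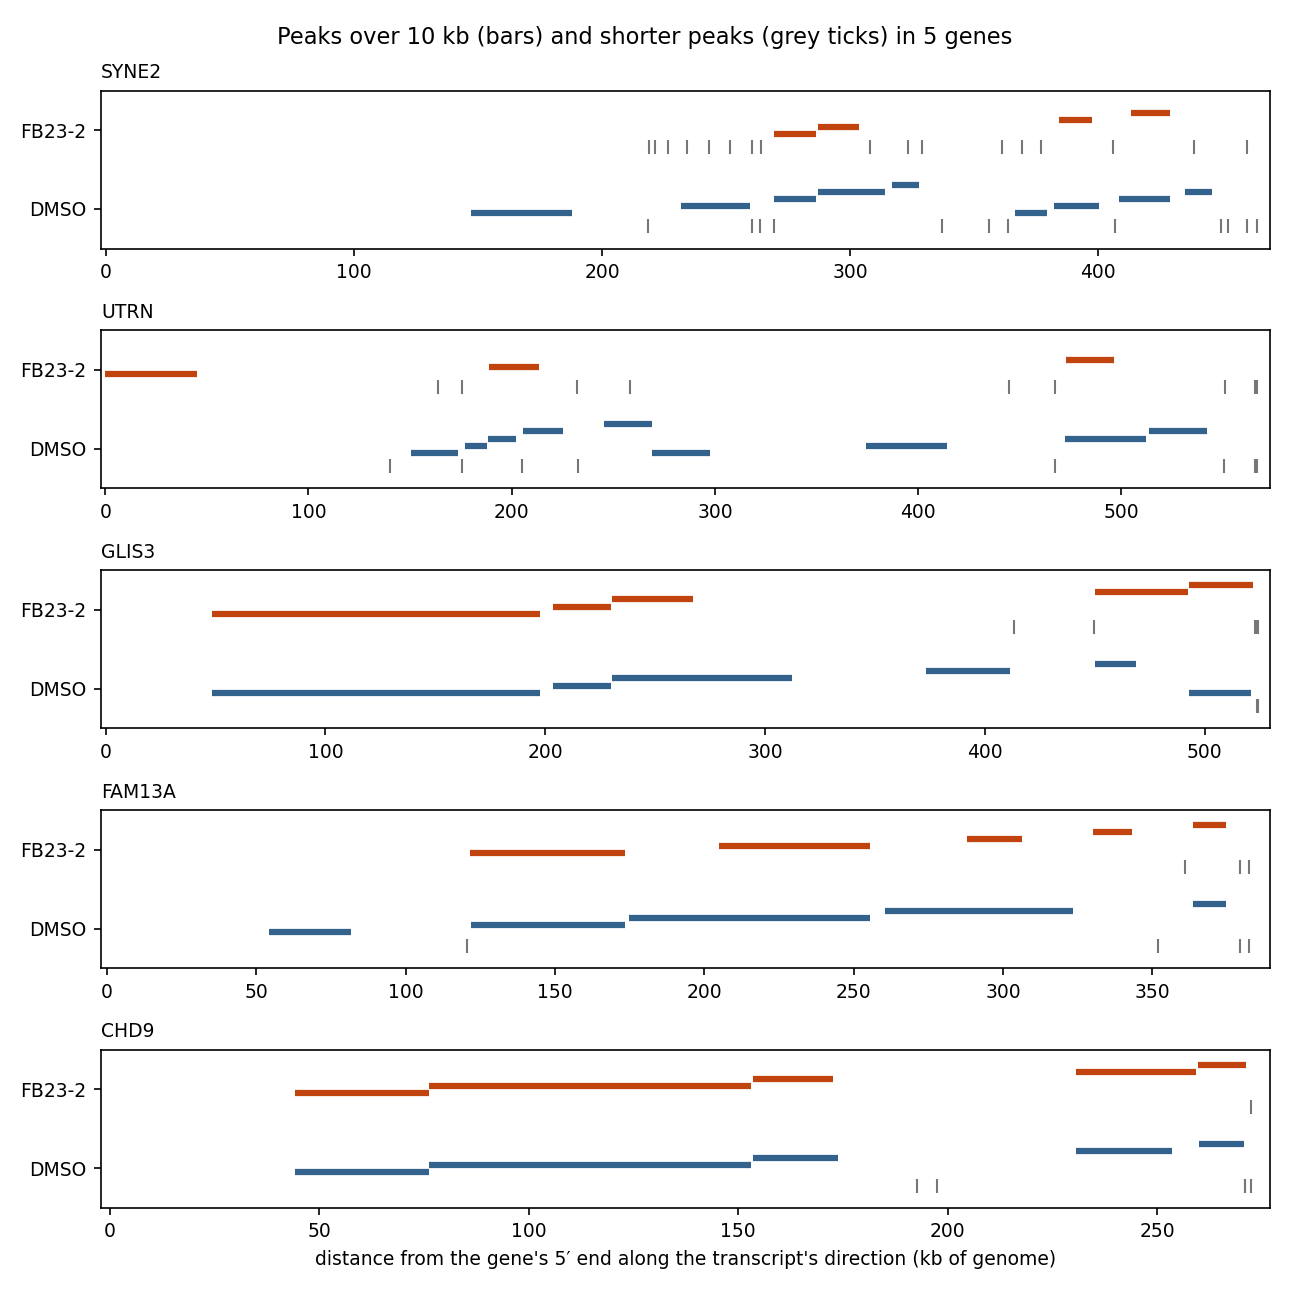
Position of the peaks in SYNE2, UTRN, GLIS3, FAM13A and CHD9, as distance from the gene's 5′ end in kb of genome (horizontal axis), with the FB23-2 list above the DMSO list in each panel. Bars are peaks over 10 kb, set at stepped heights only to keep neighbours apart, and grey ticks are the centres of shorter peaks. SYNE2 and UTRN show 4 and 3 long FB23-2 peaks against 9 long DMSO peaks each, while those of CHD9 nearly coincide.

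Long peaks without any overlap in the other list had low folds in most of the examples with the smallest p. In the FB23-2 list these included ACBD6, an acyl-CoA binding protein (38037 bases, log2 fold 1.07), and EZR, which encodes the membrane-actin linker ezrin (30991 bases, 1.0). NDUFS4, a subunit of respiratory complex I (0.77), CPSF2, a subunit of the 3′ end processing complex (0.90), and the ubiquitin ligase gene RNF130 (1.02) followed. SYTL2, a RAB27 effector of vesicle transport, stood apart with 3.28 over 21489 bases (chromosome 11, 85736599 to 85758087). In the DMSO list they were CCDC167 (16909 bases, or 99.7% of its gene, 1.49), ACTN1, the actin cross-linker alpha-actinin 1 (26189 bases, 1.01), the translation initiation factor gene EIF4G3 (29787 bases, 1.05) and the corepressor gene NCOR1 (12826 bases, 0.85). OTUD5, a deubiquitinase (1.43), and TRIM14 (1.05) were similar. The transcription factor gene DACH1 and the noncoding RNA PCA3 were higher, with 3.28 over 49268 bases and 3.30 over 40687 bases.

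The machinery of m6A itself was examined by role, from writers to readers. Of 13 writer genes, all with a peak, 5 had a long peak in each list (38.5%), where 25.4% and 25.8% of all genes with an FB23-2 or DMSO peak had one, and the median gene length was 17719 bases. The median log2 fold of these peaks was 2.79 in the FB23-2 list and 2.80 in the DMSO list, where all long peaks had 2.03 and 1.97. METTL14, the RNA-binding partner of the catalytic subunit METTL3, had a long peak of 11027 bases (2.96) in the FB23-2 list and 14396 bases (2.96) in the DMSO list. METTL16, which methylates U6 snRNA and MAT2A, had 40795 bases (3.40) in the FB23-2 list and 56187 bases (3.28) in the DMSO list. In ZC3H13, which keeps the writer complex in the nucleus, the peak began at the same base and spanned 56858 bases (2.67) in the FB23-2 list and 78507 bases (2.78) in the DMSO list. VIRMA, the scaffold of the writer complex, had 17043 bases (2.91) in the FB23-2 list and 22591 bases (2.81) in the DMSO list. For these 4 genes the named peak was longer in the DMSO list, and the folds differed by little. METTL16 had a further long peak in each list. The FB23-2 one, of 13217 bases (1.09), overlapped the DMSO peak of 56187 bases, and the DMSO one had 24693 bases (0.90).

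Of the 2 erasers, FTO had a long peak and ALKBH5 did not. FTO, the target of FB23-2, had 59140 bases in the FB23-2 list (chromosome 16, 53814707 to 53873846, log2 fold 1.63) and 65168 bases in the DMSO list (53814682 to 53879849, 1.54). Of 17 reader genes, 10 had a long peak in each list (58.8%, against the same 25.4% and 25.8%), and their median gene length was 44234 bases. The median log2 fold was 2.65 in the FB23-2 list and 2.70 in the DMSO list, where all long peaks had 2.03 and 1.97. The cytoplasmic readers YTHDF1, YTHDF2 and YTHDF3 all had a long peak labelled 3′ UTR, with log2 folds of 3.23, 3.83 and 4.02 in the FB23-2 list and 3.11, 3.75 and 3.81 in the DMSO list. IGF2BP3, an oncofetal reader that stabilises its targets, had 1 peak of 55179 bases (2.84) in the FB23-2 list, where the DMSO list held peaks of 16988 bases (4.44) and 37991 bases (1.14) separated by 25 bases.

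Across 18 gene lists the share of genes with a long peak was highest in 3 lists. Against the 25.4% and 25.8% of all genes with a peak, it was 65.1% in the FB23-2 list and 68.3% in the DMSO list for histone and chromatin regulators (41 and 43 of 63 genes). For microtubule and cytoskeleton linkers it was 60.5% in both (23 of 38 genes), and for DNA repair 60% in both (21 of 35). The median gene lengths of these 3 lists were 118495, 127368 and 90331 bases. At the other end, tubulins and their folding factors had 11.1% in both (2 of 18 genes, median length 14263 bases), and reported FTO substrates had 15.8% in both (3 of 19, median length 11645 bases). Share and length did not always rank alike. Ubiquitin ligases and proteases (median length 141623 bases) had 52.2% in the FB23-2 list and 56.5% in the DMSO list. Transcription factors of growth and stress (122839 bases) had 52.1% and 47.9%. The m6A readers had 58.8% in both at 44234 bases. ERBB3 and TUBB4A, named in the study's title, had no long peak in either list.

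The other lists lay between. Ubiquitin ligases and proteases had long peaks in 24 of 46 genes in the FB23-2 list and 26 of 46 in the DMSO list. WNT, NOTCH and Hippo genes had them in 22 of 43 in the FB23-2 list and 21 of 43 in the DMSO list, and transcription factors of growth and stress in 25 of 48 and 23 of 48. Splicing and RNA-binding proteins had them in 23 of 51 genes in the FB23-2 list and 19 of 51 in the DMSO list, and ERBB, PI3K and MAPK signalling genes in 19 of 53 and 18 of 53. Cell cycle and mitosis genes had them in 16 of 41 in the FB23-2 list and 15 of 43 in the DMSO list. Long noncoding RNAs known to carry m6A had them in 5 of 20 in both lists. Cholesterol and fatty acid synthesis genes had them in 7 of 33 in the FB23-2 list and 6 of 33 in the DMSO list, and autophagy genes in 8 of 33 and 10 of 33. In the autophagy list 0 of 10 long FB23-2 peaks and 6 of 18 long DMSO peaks had no overlap in the other list, where 7.84% of all long FB23-2 peaks and 8.82% of all long DMSO peaks had none. For transcription factors it was 5 of 46 long FB23-2 peaks and 1 of 46 long DMSO peaks. Splicing and RNA-binding proteins had 3 of 30 and 1 of 28. Histone and chromatin regulators had 9 of 69 and 10 of 75, and microtubule and cytoskeleton linkers 5 of 48 and 8 of 58. The counts are small, the FB23-2 shares of these 4 lists lie near that of all long FB23-2 peaks, and no difference was tested.

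Of the named chromatin and signalling genes, some had long peaks of like span and fold in both lists and others did not. The histone acetyltransferase gene KAT6B had an identical peak of 52713 bases with a log2 fold of 3.77 in the FB23-2 list and 3.53 in the DMSO list. BPTF, a nucleosome remodelling subunit, had 65635 bases (3.78) in the FB23-2 list and 65660 bases (3.95) in the DMSO list. The coactivator gene NCOA2 had 41403 bases (3.85) in the FB23-2 list and 34732 bases (4.0) in the DMSO list, and a second long peak of 30976 bases (0.94) in the FB23-2 list and 78442 bases (0.98) in the DMSO list. HDAC7, a class IIa histone deacetylase, had a long peak in the FB23-2 list only, over 13235 bases with 3.96 and no overlap in the DMSO list. FOXO1, the transcription factor held in check by AKT, had an identical peak of 140942 bases, with 4.49 in the FB23-2 list and 4.42 in the DMSO list. RPS6KB1, the S6 kinase below mTOR, had 4 long peaks in each list, and the highest had 4.25 in the FB23-2 list and 4.24 in the DMSO list. IRS1, the adaptor of the insulin receptor, had 64715 bases (3.77) in the FB23-2 list and 64740 bases (3.61) in the DMSO list. PIK3R1, the regulatory subunit of PI3 kinase, had a long peak in the FB23-2 list only (47015 bases, 3.54), and it overlapped a shorter DMSO peak.

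Among NOTCH pathway genes, RBPJ, the DNA-binding effector of the pathway, had an identical peak of 48690 bases with 3.77 in the FB23-2 list and 3.84 in the DMSO list. The coactivator gene MAML2 had 250762 bases (3.69) in the FB23-2 list and 251261 bases (3.64) in the DMSO list at its 5′ side. In the FB23-2 list a second long MAML2 peak of 114837 bases (3.83) stood beside it and was shared with a DMSO peak. AXIN1, the scaffold of the beta-catenin destruction complex, had 58914 bases (3.38) in the FB23-2 list and 54732 bases (3.50) in the DMSO list. TEAD4, a Hippo pathway transcription factor, had a long peak of 18728 bases (3.53) in the DMSO list only, which overlapped a shorter FB23-2 peak. Of the ubiquitin genes, the substrate receptor gene FBXW7 had 153220 bases (4.17) in the FB23-2 list and 152920 bases (4.33) in the DMSO list. BIRC6, a giant inhibitor of apoptosis, had 34174 bases (4.10) in the FB23-2 list and 32558 bases (4.01) in the DMSO list. The deubiquitinase gene USP10 had an identical peak of 35057 bases, with 4.06 in the FB23-2 list and 3.99 in the DMSO list.

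Genome maintenance genes held both closely matched and unequal peaks. FANCC, of the Fanconi anaemia core complex, had an identical peak of 109258 bases (chromosome 9, 95317530 to 95426787) with 4.78 in the FB23-2 list and 4.65 in the DMSO list. The translesion polymerase gene REV1 had 55533 bases (3.91) in the FB23-2 list and 54282 bases (3.93) in the DMSO list. A second long DMSO peak of REV1, of 10004 bases (1.14), overlapped an FB23-2 peak. ERCC6, which acts in transcription-coupled repair, had 3 long peaks in each list, one of them identical over 32683 bases with 3.8 in the FB23-2 list and 3.64 in the DMSO list. PALB2, the partner of BRCA2, had 18841 bases (3.19) in the FB23-2 list and 32252 bases (3.10) in the DMSO list. PDS5B, a cohesin cofactor gene of the cell cycle list, had an identical peak of 62610 bases, at 3.89 in the FB23-2 list and 3.66 in the DMSO list. Its other long DMSO peak, of 10970 bases (1.54), overlapped an FB23-2 peak. NIPBL, the cohesin loader, had 39746 bases (3.89) in the FB23-2 list and 37130 bases (3.86) in the DMSO list. E2F3, a transcription factor of S phase entry, had 89696 bases (3.50) in the FB23-2 list and 89721 bases (3.34) in the DMSO list.

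Cytoskeletal and vesicle genes followed. MACF1, a microtubule-actin cross-linker, had a long peak of 27463 bases (4.01) in the FB23-2 list and 27788 bases (3.82) in the DMSO list. Another of 55280 bases (2.47) in the FB23-2 list had no overlap in the DMSO list. The kinesin gene KIF13A had an identical peak of 11333 bases, with 3.98 in the FB23-2 list and 3.95 in the DMSO list, and KIF3B had 54195 bases (3.91) in the FB23-2 list and 54170 bases (3.75) in the DMSO list. The beta-tubulin gene TUBB6 had an identical peak of 18379 bases, with 3.84 in the FB23-2 list and 3.83 in the DMSO list. DENND1A, an exchange factor for RAB35, had 160630 bases (2.11) in the FB23-2 list and 131852 bases (4.18) in the DMSO list.

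Transcription, RNA and metabolic genes completed the lists. NFE2L2, the regulator of the oxidative stress response, had an identical peak of 27331 bases with 4.78 in the FB23-2 list and 4.33 in the DMSO list. FOXK2, a forkhead factor, had 42993 bases (4.63) in the FB23-2 list and 43018 bases (4.54) in the DMSO list. CREB1, the cAMP-responsive factor, had an identical peak of 20248 bases, with 4.24 in the FB23-2 list and 4.35 in the DMSO list. Of the RNA-binding genes, RBM6 had 91402 bases (3.85) in the FB23-2 list and 94834 bases (3.59) in the DMSO list. MBNL2, a splicing regulator, had 135974 bases (3.71) in the FB23-2 list and 135924 bases (3.72) in the DMSO list. The microRNA silencing scaffold gene TNRC6B had an identical peak of 68324 bases, with 3.27 in the FB23-2 list and 2.89 in the DMSO list. FTX, a noncoding RNA of the X inactivation centre, had 15692 bases (4.52) in the FB23-2 list and 16117 bases (3.97) in the DMSO list. The noncoding RNA CYTOR had 130262 bases (3.72) in the FB23-2 list and 130062 bases (3.45) in the DMSO list. RARA, the retinoic acid receptor and a reported FTO substrate, had 18361 bases (3.02) in the FB23-2 list and 18386 bases (2.66) in the DMSO list. ACACA, the rate-limiting enzyme of fatty acid synthesis, had an identical peak of 38041 bases, with 4.03 in the FB23-2 list and 4.39 in the DMSO list. SREBF1, a regulator of lipid synthesis, had a long peak in the FB23-2 list only (16186 bases, 2.01, no overlap). SQLE, an enzyme of cholesterol synthesis, had one in the DMSO list only (10546 bases, 2.53), which overlapped shorter FB23-2 peaks. The autophagy regulator gene AMBRA1 had 21532 bases (3.77) in the FB23-2 list and 37128 bases (3.58) in the DMSO list. ATG7, which activates ATG8 and ATG12, had 17892 bases (2.43) in the FB23-2 list and 17917 bases (3.08) in the DMSO list.

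The cell line's label was set against 13 genes of hepatocytes and liver cancer. A peak of any span was found in 5 of them in the FB23-2 list and 4 in the DMSO list (HNF4A, KRT8, KRT18, EPCAM and, in the FB23-2 list only, KRT19). ALB, APOA1, APOB, TTR, SERPINA1, AFP and GPC3 were among those with no peak in either list. The absence of an m6A peak is not the absence of the RNA, and expression was not measured in these tables. EPCAM, an epithelial adhesion protein, was the only gene of the list with a long peak, 1 in each list. Over its peaks of any span, the highest log2 fold was 4.59 in the FB23-2 list and 3.61 in the DMSO list. Of 12 melanosome genes, a list added after the values were seen, 9 had a peak in each list and 7 a long peak (TYR, TYRP1, PMEL, MLANA, MITF, OCA2 and RAB27A). Of all genes with a peak, 25.4% in the FB23-2 list and 25.8% in the DMSO list had a long one. DCT, SLC45A2 and RAB38 had no peak in either list, and GPR143 had only shorter ones. SOX10, a melanocyte and neural crest factor with no long peak, had a log2 fold of 10.68 in the FB23-2 list and 9.20 in the DMSO list. What part the cells' identity has in the folds of TYR, PMEL and TYRP1 was not tested.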

How the data were processed

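MeRIP-seq of 3 FB23-2 and 3 DMSO samples was deposited as 1 peak table per treatment, whose columns name no sample. HISAT2, Cuffdiff and the GRCh38 build were used, per the submitters' processing notes. Of the peak caller, tool versions and strandedness, the sources used here say nothing. Per the file headers the values per peak are a log2 fold with p-values, raw and adjusted, as the authors deposited them. They served for ranking and filtering peaks within a list, and folds of matched peaks were set side by side between the lists as a description, with no test. The deposited peak length equals the span plus 1 in every row, and no exon blocks are given. Deposited starts count from 0, and positions are printed from 1. Read depth is unknown.

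Spans, overlaps on the same strand, placement against the deposited gene ends and exact (Clopper-Pearson) 95% intervals were computed with Python 3.11.15, pandas 2.3.3, numpy 2.4.6 and scipy 1.17.1. The overlap code was tested on simulated data. Named genes are the 10 longest and 10 highest-fold long peaks per list, the 8 with the smallest p and no overlap, the 2 on each side of 10 kb, the 5 genes with the most long peaks, the 10 longest identical pairs, the 8 largest changes among pairs with 1 shared end, up to 4 members per gene list by fold, and FTO, ERBB3, TUBB4A and PMEL. Genes outside this are said to be so, apart from markers and the genes with GGACT at the start of a long peak in both lists. Not all of them are printed, and a few genes and 1 gene list are not reported here. The members, the 18 gene lists and this rule were chosen with earlier results of these data known. Alternatives were other span limits (5 and 20 kb), an adjusted p under 0.001, a log2 fold of at least 2, equal list lengths, other overlap rules, strand ignored and each gene counted once. For class shares a gene counted once stood by its long peak with the smallest p. For folds it stood by its peak of any span with the smallest p. Ties went to the higher fold.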

Additional observations from a re-analysis of the deposited data

How the results depend on the processing

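Of 104 alternatives over 20 results, 54 kept a share or median inside its 95% interval or a count within 1.5 times, 50 moved and 0 reversed. A reversal meant a change of sign. Only the excess of the median fold over the rest could show one, since counts, shares and the folds of the peaks are all positive. With a limit of 5 kb there were 8126 FB23-2 and 8421 DMSO peaks, with 20 kb 2739 FB23-2 and 2843 DMSO peaks, and with a log2 fold of at least 2 there were 2583 FB23-2 and 2597 DMSO peaks. The shared share was 92.2% (FB23-2) and 91.2% (DMSO) with any overlap, and 80.1% (FB23-2) and 77.8% (DMSO) when both spans counted. It was 82.7% (FB23-2) and 79.5% (DMSO) with a partner also over 10 kb, 42.6% (FB23-2) and 41.1% (DMSO) with both ends within 100 bases, a setting added after the data were seen, and 11.6% (FB23-2) and 11.2% (DMSO) with identical ends. With a log2 fold of at least 2 it was 91.9% (FB23-2) and 93.8% (DMSO). It moved to 92.3% over 20 kb and 90.2% over 5 kb in the FB23-2 list, and to 91.8% with an adjusted p under 0.001 and 91.2% with strand ignored in the DMSO list. The 5′ UTR share was 23.5% (FB23-2) and 22.4% (DMSO) over 5 kb and 32.7% (FB23-2) and 30.7% (DMSO) over 20 kb. The 3′ UTR share was 44.7% (FB23-2) and 45.7% (DMSO) over 5 kb, 38.8% (FB23-2) and 40.1% (DMSO) over 20 kb, and 44.4% (FB23-2) and 44.7% (DMSO) with each gene counted once. The exonic share was 17.1% (FB23-2) and 17.2% (DMSO) with each gene counted once, 21.5% (FB23-2) and 21.7% (DMSO) without peaks that reach beyond their gene, also added after the data were seen, and 19% over 20 kb in the FB23-2 list. The median log2 fold of long peaks was 2.76 (FB23-2) and 2.73 (DMSO) with each gene counted once, 1.96 (FB23-2) and 1.91 (DMSO) over 5 kb, 2.09 (FB23-2) and 2.07 (DMSO) with an adjusted p under 0.001, and 2.10 over 20 kb in the FB23-2 list. Its excess over the rest was 0.77 (FB23-2) and 0.75 (DMSO) with each gene counted once, against 0.66 (FB23-2) and 0.63 (DMSO) as reported. Counting each gene once kept its peak with the smallest p, with ties to the higher fold. Those medians are therefore of selected peaks and not of typical ones. The share ending at the gene's 3′ end was 7.65% (FB23-2) and 8.25% (DMSO) over 5 kb and 4.53% (FB23-2) and 4.99% (DMSO) over 20 kb. The cause of these moves was not tested.

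No paired analysis was possible because the tables give 1 pooled list per treatment and carry no replicate numbers, and leaving out a replicate was likewise not run. Measuring length and overlap on exon blocks was not run, since the tables hold none. The rule by which neighbouring exons were joined into peaks is not stated. Sequencing depth, input level and the spread between samples are unknown, so no difference in span, fold or presence between the lists was set against replicate error.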
